A study of Mus musculus with 48 samples.

Results

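Genes known for neutrophils and inflamed myeloid cells, 10 of the 42548 in the deposited count table, were followed through mouse lungs injured with bleomycin. They are S100a8, S100a9, Retnlg, Hk3, Fpr1, Csf3r, Cxcr2, Acod1, Il1b and Ngp, picked by identifier for their levels in CPM (read counts scaled to the library total) across the arms of the study, in both compartments and within batches. The choice used these same values and set no threshold. Differences between arms and between compartments are therefore descriptions. A gene is written as called, risen or fallen where it passed the adjusted p threshold of 0.05 in the edgeR fit over all genes, and nothing is supported with these calls. All 10 genes entered the fits between arms.

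Bleomycin injures the lung and leaves fibrosis in mice. The study had 5 bleomycin mice given KIRA8, a small-molecule inhibitor of the endoplasmic reticulum stress sensor IRE1α, and 4 bleomycin mice given 3G9, which blocks the TGFβ-activating integrin αvβ6. They were set against 9 bleomycin control mice, and those against 6 saline mice. Control mice received what the labels call Vehicle in batches S061 and S135 and Axum8 in batch S151, so within their batch the 3G9 mice were compared with Axum8 mice alone. All mice were RiboTag mice, in which a tagged ribosomal protein allows ribosome-bound RNA to be pulled down with an anti-HA antibody. From each of the 24 mice came 1 epithelial library and 1 of whole lung. The sources used here do not give the driver of the tag, doses, ages, the time after bleomycin or how the preparation of whole lung libraries differed. Batch S061 held 3 KIRA8 and 3 bleomycin control mice. Batch S135 held 2 KIRA8, 2 bleomycin control and 3 saline mice. Batch S151 held 4 3G9, 4 bleomycin control and 3 saline mice.

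Neutrophils are short-lived phagocytes that leave the bone marrow under the cytokine G-CSF, follow CXC chemokines and formyl peptides into tissue and arrive with ready-made antimicrobial proteins. S100A8 and S100A9 form calprotectin, a metal-binding protein complex that fills neutrophil cytosol. Activated macrophages and monocytes share several of these genes, above all Il1b, Acod1 and Hk3, so the list marks inflammatory myeloid cells in general and neutrophils in particular. None of the 10 is known as an epithelial identity gene, although stressed epithelium can make S100A8 and S100A9.

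Library totals were 21790283 to 51797377 counts for S061, 7163613 to 20468041 for S135 and 24751240 to 36945995 for S151. The 10 genes together took 0.00979% to 0.620% of all counts in whole lung libraries and 0.000407% to 0.0313% in epithelial libraries. The table names genes by identifier alone, so markers of epithelium, macrophages or other cells could not be checked here, and whether the labelled compartments match their markers was not tested. Mouse 218 (3G9) has a suffix of unknown meaning on its whole lung column. In these bulk libraries fewer cells of a type and less RNA per cell cannot be told apart.

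The promoters of 4 of these genes are shown because 2 of them, S100a8 and S100a9, lie next to each other in the genome and varied together, Retnlg departed from the rest in epithelium, and Ngp is a gene of immature neutrophils. Each run is the 250 bases before the RefSeq transcription start (GRCm38.p6), printed 5′ to 3′ on the gene's strand, with motif matches in capitals. S100a8 is at chr3:90668821-90669070 on the plus strand, S100a9 at chr3:90695722-90695971 on the minus strand, Retnlg at chr16:48872358-48872607 on the plus strand and Ngp at chr9:110419558-110419807 on the plus strand.
S100a8: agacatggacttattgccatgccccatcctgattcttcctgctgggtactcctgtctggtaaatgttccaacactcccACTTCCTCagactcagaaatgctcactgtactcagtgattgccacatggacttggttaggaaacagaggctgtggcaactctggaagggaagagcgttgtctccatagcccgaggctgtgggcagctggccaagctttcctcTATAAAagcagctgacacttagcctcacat
S100a9: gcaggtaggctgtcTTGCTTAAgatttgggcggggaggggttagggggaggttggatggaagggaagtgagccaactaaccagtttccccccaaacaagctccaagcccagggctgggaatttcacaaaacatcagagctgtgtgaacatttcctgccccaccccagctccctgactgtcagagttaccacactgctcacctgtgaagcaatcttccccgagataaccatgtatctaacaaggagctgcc
Retnlg: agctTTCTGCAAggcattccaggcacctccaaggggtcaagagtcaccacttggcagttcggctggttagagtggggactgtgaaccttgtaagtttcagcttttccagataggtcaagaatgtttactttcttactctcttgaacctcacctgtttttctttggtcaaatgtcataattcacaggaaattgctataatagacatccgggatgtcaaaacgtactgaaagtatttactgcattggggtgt
Ngp: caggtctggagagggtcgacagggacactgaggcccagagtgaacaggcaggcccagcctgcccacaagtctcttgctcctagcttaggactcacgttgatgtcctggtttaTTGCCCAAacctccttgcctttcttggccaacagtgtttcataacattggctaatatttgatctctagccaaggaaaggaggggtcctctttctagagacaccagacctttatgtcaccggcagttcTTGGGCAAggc
The letters searched, on both strands, were TATAAA for the TATA box, TTGCNNAA for C/EBP factors and GAGGAAGT for PU.1, and no matches overlapped in these genes. The S100a8 run holds a PU.1 match on the other strand and a TATA box whose first base is 30 bases before the start. The runs of S100a9, Retnlg and Ngp hold C/EBP matches, 1 in S100a9, 1 in Retnlg and 2 in Ngp. C/EBP matches were found in 3 of the 10 genes and in 9.56% of 32851 mouse promoters of the same length, and a PU.1 match in 1 of 10 and 2.44%. The letters TATAAA were found in 4 of 10, against 12.4%. They began 30, 28 and 31 bases before the start in S100a8, Acod1 and Il1b, and 227 bases before it in Fpr1. A match describes these letters and is not a binding site.

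In whole lung, S100a8 had a median of 969.9 CPM in batch S061, 69.3 CPM in S135 and 23.7 CPM in S151, and the arms of S135 differed several-fold among themselves. In S061, S100a8 (ENSMUSG00000056054, chr3:90669071-90670034) reached 1341, 2738 and 477 CPM in KIRA8 mice 20, 32 and 41, against 599, 1398 and 256 CPM in bleomycin control mice 17, 31 and 45. Within each arm the mice differed several-fold and the arms overlapped. The 1 male of each arm, mouse 41 with KIRA8 and mouse 45 without, had the lowest S100a8 of its arm. In S135, S100a8 was at 89.2 and 143 CPM in KIRA8 mice 154 and 155, at 33.6 and 18.1 CPM in bleomycin control mice 148 and 149, and at 69.3, 27.5 and 379.6 CPM in saline mice 146, 152 and 153. Both KIRA8 lungs lay above both bleomycin controls there, but saline mouse 153 was above all of them. In S151, S100a8 was at 37.4, 24.3, 30.2 and 12.1 CPM in 3G9 mice 218, 219, 226R and 228, at 12.8, 19.3, 24.5 and 23.7 CPM in bleomycin control mice 204, 206, 208R and 225, and at 22.2, 27.4 and 16.1 CPM in saline mice 207, 221 and 230. These 3 arms overlapped at a level far below that of S061.

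S100a9 (ENSMUSG00000056071, chr3:90692630-90695721), the partner subunit, followed the same mice. It had 1462, 2699.8 and 490.1 CPM in KIRA8 mice of S061, against 350.0, 1209 and 248 CPM in bleomycin control mice. In S135 it had 241 and 419.8 CPM with KIRA8, 122 and 66.7 CPM in bleomycin control mice and 137, 66.7 and 945 CPM in saline mice, where mouse 153 again stood far above the others. In S151 it had 91.3, 55.98, 55.5 and 25.1 CPM with 3G9, 25.8, 44.1, 34.7 and 40.04 CPM in bleomycin control mice and 50.3, 73.5 and 35.1 CPM in saline mice. All 3 arms of S151 overlapped for S100a9.

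**Figure D1:**
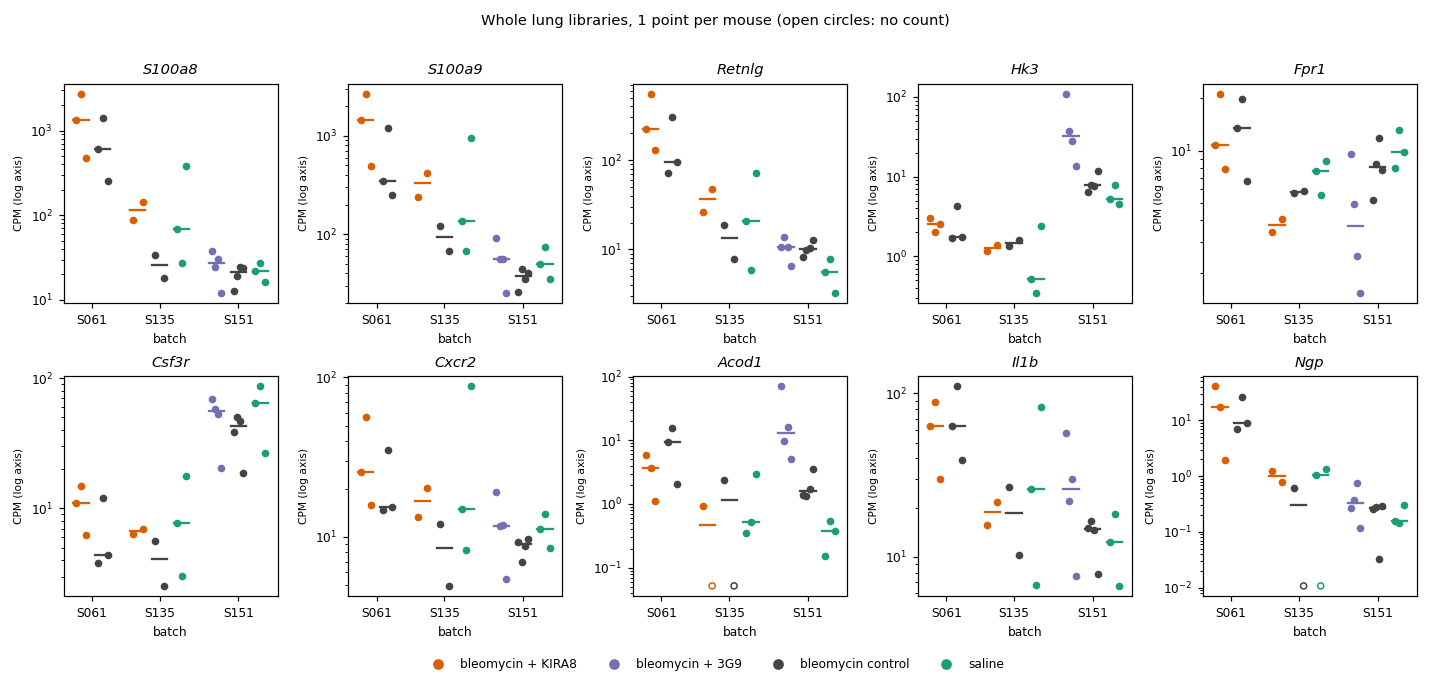
Level of each gene in whole lung libraries, in CPM on a log axis, by batch, with a point per mouse, a bar at the median of the arm and open circles for libraries with no count. Arms run from KIRA8 or 3G9 to bleomycin control and saline within a batch. S100a8 runs from 256 to 2738 CPM in S061 and from 12.1 to 37.4 CPM in S151, while Csf3r is higher in S151.

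The proportion of the calprotectin transcripts differed by batch as well. The ratio of S100a8 to S100a9 counts in whole lung had a median of 1.02 in S061 (range 0.917 to 1.71, 6 libraries), 0.370 in S135 (0.272 to 0.507, 7 libraries) and 0.459 in S151 (0.373 to 0.706, 11 libraries). Inside S061 the ratio was 0.917 to 1.01 in KIRA8 lungs, against 1.03 to 1.71 in bleomycin control lungs, and in the epithelial libraries 0.404 to 0.705 with KIRA8, against 0.725 to 1.09. The KIRA8 and bleomycin control values of S061 did not overlap in either compartment. In S135 whole lung the order was the other way, 0.340 and 0.370 with KIRA8, against 0.272 and 0.276 in bleomycin control mice. In S135 epithelium it was again lower with KIRA8, 0.127 and 0.186, against 0.196 and 0.453 in bleomycin control mice. The batches hold different mice, arms and library totals, so what makes them differ cannot be told apart.

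**Figure D2:**
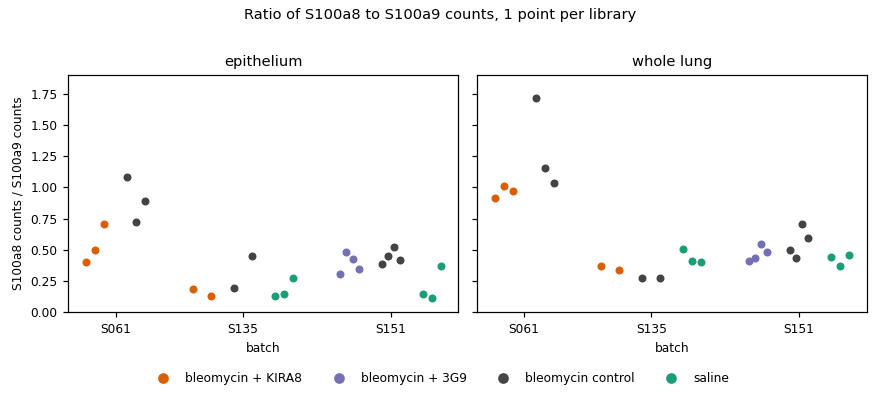
Ratio of S100a8 to S100a9 counts (no unit, linear axis from 0) by batch in epithelial and whole lung libraries, with a point per library. The highest whole lung ratio is 1.71 in a bleomycin control mouse of S061, and the S135 and S151 libraries stay at or below 0.706.

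Over both batches that held KIRA8, the whole lung fit with batch as a term gave log2 fold changes against bleomycin control mice of 1.09 ± 0.65 (SE) for S100a8 and 1.35 ± 0.62 (SE) for S100a9. Neither was called. Without bleomycin control mouse 31, which had the highest level of its arm and batch for all 10 genes, the values were 1.501 and 1.84. Without KIRA8 mouse 32, they were 0.64 and 0.95. For bleomycin control against saline mice, the log2 fold changes were -1.22 ± 0.63 (SE) for S100a8 and -1.32 ± 0.58 (SE) for S100a9, not called, and -0.41 and -0.47 without saline mouse 153. The lower calprotectin level of bleomycin control lungs thus rested largely on 1 saline mouse.

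Granule and secreted proteins came next. Ngp (ENSMUSG00000032484, chr9:110419808-110423012) encodes neutrophilic granule protein, stored in secondary granules and made by precursors in the marrow. In S061 it had 40.8, 17.6 and 1.98 CPM in KIRA8 lungs, against 7.09, 25.8 and 8.9 CPM in bleomycin control lungs, so the arms overlapped across a wide range. In S135 and S151 no whole lung library passed 1.34 CPM of Ngp, and 2 had no count. Retnlg (ENSMUSG00000022651, chr16:48872608-48874498) encodes resistin-like gamma, a secreted protein of neutrophils. Its whole lung level was 223, 556 and 128 CPM with KIRA8 and 72.5, 306 and 95.1 CPM in bleomycin control mice of S061. In S135 it was 25.9 and 46.9 CPM with KIRA8, 18.7 and 7.87 CPM in bleomycin control mice and 20.8, 5.898 and 71.1 CPM in saline mice. There KIRA8 lungs were above bleomycin controls, and saline mouse 153 was above both. In S151 Retnlg had 10.7, 13.6, 10.7 and 6.51 CPM with 3G9, 8.16, 9.88, 10.3 and 12.8 CPM in bleomycin control mice and 5.602, 7.79 and 3.25 CPM in saline mice. Every bleomycin control lung of S151 lay above every saline lung for Retnlg. Retnlg belongs to a family of similar resistin-like genes, and whether reads were shared among them cannot be examined in a count table.

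The receptors through which neutrophils are mobilised and guided did not share 1 pattern. Csf3r (ENSMUSG00000028859, chr4:126023441-126044975), the G-CSF receptor, ran against the calprotectin genes between batches, with 18.6 to 86.7 CPM in the 11 whole lung libraries of S151, 2.54 to 17.7 CPM in the 7 of S135 and 3.84 to 15.0 CPM in the 6 of S061. Every S151 library was above every other library for Csf3r. Within S151 it had 68.8, 58.3, 53.4 and 20.6 CPM with 3G9, 38.9, 50.7, 47.1 and 18.6 CPM in bleomycin control mice and 64.7, 86.7 and 26.7 CPM in saline mice. The log2 fold change was 0.51 ± 0.47 (SE) for 3G9 and -1.02 ± 0.41 (SE) for bleomycin control against saline mice, neither called, and the arms overlapped.

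Cxcr2 (ENSMUSG00000026180, chr1:74153994-74161246), the chemokine receptor that draws neutrophils into tissue, tracked the list most closely. In S135 it had 13.3 and 20.3 CPM with KIRA8, 12.1 and 4.93 CPM in bleomycin control mice and 15.1, 8.33 and 88.03 CPM in saline mice. Saline mouse 153 held the highest Cxcr2 level of the series. In S061 it had 25.6, 56.8 and 15.9 CPM with KIRA8, against 14.7, 35.3 and 15.5 CPM in bleomycin control mice. In S151 it had 19.1, 11.7, 11.9 and 5.47 CPM with 3G9, 9.28, 6.97, 8.77 and 9.72 CPM in bleomycin control mice and 11.1, 14.01 and 8.47 CPM in saline mice, all overlapping. For bleomycin control against saline mice the log2 fold change of Cxcr2 was -1.27 ± 0.51 (SE), not called, and -0.49 without mouse 153. Fpr1 (ENSMUSG00000045551, chr17:17876471-17883939), the formyl peptide receptor, stayed in a similar range in all 3 batches. Its lowest, median and highest whole lung levels were 6.68, 12.03 and 21.1 CPM in S061, 3.42, 5.75 and 8.66 CPM in S135, and 1.54, 7.999 and 13.04 CPM in S151. Fpr1 was the only gene of the 10 with a negative whole lung log2 fold change for 3G9, at -0.76 ± 0.42 (SE), and it was not called. The value was -1.41 without 3G9 mouse 218 and -0.48 without 3G9 mouse 228.

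Among the metabolic and cytokine genes of activated myeloid cells, Hk3 and Acod1 were higher in every 3G9 lung than in every bleomycin control lung of S151. Hk3 (ENSMUSG00000025877, chr13:55005985-55021475), a hexokinase of myeloid cells, had 110.3, 37.1, 27.9 and 13.7 CPM in 3G9 mice 218, 219, 226R and 228, against 6.39, 7.89, 7.61 and 11.8 CPM in bleomycin control mice 204, 206, 208R and 225. Saline mice of that batch had 5.23, 7.9 and 4.52 CPM. The log2 fold change of Hk3 was 2.55 ± 0.47 (SE), and Hk3 rose by the fit over all genes. The call rested on more than 1 library. Without 3G9 mouse 218 the value was 1.68, and without bleomycin control mouse 204, 206 or 208R it was 2.46, 2.52 or 2.52, and in none of these 4 fits was Hk3 called. It was not called within S151 alone or without batch S061 either. In S061 and S135 no whole lung library had more than 4.34 CPM of Hk3.

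Acod1 (ENSMUSG00000022126, chr14:103047012-103056573), which makes itaconate in activated macrophages and neutrophils, showed a wider gap. It had 70.1, 9.67, 16.3 and 5.09 CPM in 3G9 lungs, 1.404, 1.33, 1.74 and 3.59 CPM in bleomycin control lungs and 0.156, 0.5399 and 0.379 CPM in saline lungs of S151. Neither the 3G9 lungs and bleomycin controls nor the bleomycin controls and saline lungs overlapped. The log2 fold change for 3G9 was 4.04 ± 0.90 (SE), not called, and 2.73 without mouse 218. Under KIRA8, Acod1 had 5.92, 3.67 and 1.12 CPM, against 9.47, 15.4 and 2.07 CPM in bleomycin control lungs of S061, which overlapped. In S135 all 7 whole lung libraries had 2.96 CPM or less. The log2 fold change for KIRA8 was -1.57 ± 0.91 (SE), not called.

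Il1b (ENSMUSG00000027398, chr2:129364569-129371164), the cytokine interleukin-1 beta, had 57.2, 22.02, 29.98 and 7.67 CPM in 3G9 lungs, against 15.01, 16.5, 14.7 and 7.89 CPM in bleomycin control and 12.3, 18.3 and 6.66 CPM in saline lungs of S151. Mouse 228 with 3G9 lay below all 4 bleomycin controls, and the other 3 mice with 3G9 lay above them. The log2 fold change was 1.35 ± 0.59 (SE) for 3G9 and -0.29 ± 0.56 (SE) for KIRA8, neither called. In S061 Il1b had 62.9, 87.9 and 30.05 CPM with KIRA8, against 63.2, 110.2 and 39.1 CPM in bleomycin control lungs, again overlapping.

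Counted over the list in whole lung, 3G9 against bleomycin control gave 1 of 10 genes called higher, Hk3, and none lower, where 0.165% of all 19345 genes tested were called higher and 0.031% lower. Against 1 negative log2 fold change, 9 were positive, with a median of 0.86 over the 10 (0.54 without mouse 218) and of -0.01 over all genes tested. By mean log2 CPM within S151 alone, 9 of 10 were positive as well, and each difference lay below its fitted value. S100a8 was at 0.34 within S151, against 0.74 in the fit, and Retnlg at 0.02, against 0.39. Every 3G9 mouse was in S151, while the fit also drew on mice of the other batches through its arm and batch terms. For this comparison only 3G9 and bleomycin control mice were left out in turn. How far saline or KIRA8 mice, such as saline mouse 153, moved the fitted values was therefore not tested. KIRA8 against bleomycin control gave 0 of 10 called by edgeR, DESeq2 or limma-voom, where 0.527% of all genes were called by edgeR. An unadjusted p under 0.05 was found for 1 of the 10 and for 15.4% of all genes. Of the log2 fold changes 6 were positive and the median was 0.55, against -0.01 over all genes. Without KIRA8 mouse 32 this median was 0.19, and without bleomycin control mouse 31 it was 0.84. Bleomycin control against saline mice gave 0 of 10 called by edgeR and limma-voom and 1 by DESeq2, Cxcr2, which was lower, where 10.1% of all genes were called by edgeR. An unadjusted p under 0.05 was found for 3 of the 10 and for 25.8% of all genes, which is near the same share. There the median of the 10 was -0.53 and 8 were negative, against a median of -0.01 over all genes. Without saline mouse 153 the median was -0.27 and 6 were negative. The KIRA8, 3G9 and saline comparisons share bleomycin control mice.

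Within S135, 6 of 10 genes had both KIRA8 lungs above both bleomycin control lungs, namely S100a8, S100a9, Retnlg, Csf3r, Cxcr2 and Ngp, where 16.1% of all genes did so, and 1, Fpr1, had both below, where 18.4% did. Bleomycin control mouse 149 had no count of Ngp. Within S061, with 3 mice against 3, none of the 10 separated in either direction, where 12% of all genes were higher and 6.97% lower. Within S151, Hk3 and Acod1 separated 3G9 from bleomycin control lungs upward, where 1.07% of all genes did, and Retnlg and Acod1 separated bleomycin control from saline lungs upward, where 16.4% did. None of the 10 separated downward for 3G9 (2.4% of all genes) or for bleomycin control (2.62%) in S151. Bleomycin control and saline lungs of S135 separated for none of the 10, where 16.8% of all genes were higher and 11.7% lower.

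**Figure D3:**
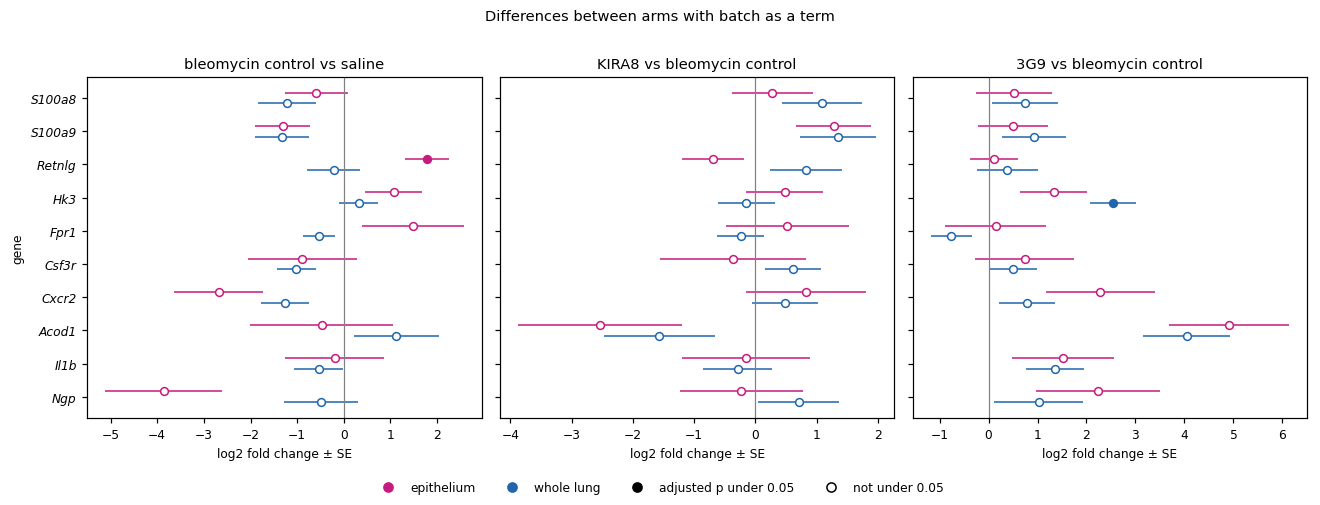
Log2 fold change of each gene with its SE, by comparison and compartment, from the fits with batch as a term, and a line at 0. In whole lung Hk3 is at 2.55 for 3G9, and in epithelium Retnlg is at 1.78 for bleomycin control against saline mice.

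The genes varied together by mouse. In whole lung, bleomycin control mouse 31 had the highest level of its arm and batch for 10 of 10 genes, and saline mouse 153 for 10 of 10. With 3G9, mouse 218 was highest for 8 of 10 and mouse 228 lowest for 10 of 10. Saline mouse 221 was highest for 9 of 10 in S151, and KIRA8 mouse 41 was lowest for 9 of 10 in S061. The lone female of each S151 arm was 226R with 3G9, 225 among bleomycin controls and 230 among saline mice. Mouse 225 was highest for 5 of 10 genes and lowest for 2, and 226R was highest for 1. Mouse 230 was highest for 1 and lowest for 7. None of these females was highest for S100a8 in its arm. In S135 saline mouse 146 was the only female. After each gene was centred on its batch means, the correlation with the mean of the other 9 over 24 whole lung libraries was 0.904 for Cxcr2, 0.898 for S100a9, 0.895 for S100a8, 0.879 for Il1b, 0.824 for both Csf3r and Retnlg, 0.646 for Ngp, 0.492 for Hk3, 0.433 for Acod1 and 0.266 for Fpr1. Hk3, Acod1 and Fpr1 thus tracked the list least. Among 12394 other genes with a mean of 5 CPM or more, the 2 that tracked the mean of the list most closely over these 24 libraries were ENSMUSG00000079597 (r = 0.914) and ENSMUSG00000059657 (r = 0.884). These points share libraries, depth and mice, and are a description.

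Epithelial libraries held less of most of these transcripts than whole lung. In saline mice the fit with the mouse as a block tested 8 of the 10 genes, and all 8 were called lower in epithelium, where 30.3% of all 14885 genes tested were called lower and 27.3% higher. Acod1 and Ngp did not pass the filter on low counts. The epithelium minus whole lung log2 differences were -4.25 ± 0.21 (SE) for S100a8, -3.06 ± 0.16 for S100a9, -3.78 ± 0.41 for Cxcr2, -5.84 ± 0.60 for Csf3r, -5.33 ± 0.58 for Il1b, -6.39 ± 0.93 for Fpr1 and -2.74 ± 0.74 for Hk3. Retnlg was the least depleted, at -0.76 ± 0.28, and its call was lost without saline mouse 146, 152 or 153 (-0.70, -0.78 and -0.48) and without the replicate block that pairs the libraries of a mouse (-0.93). In bleomycin control mice 9 genes were tested and 8 were called lower in epithelium, where 30.3% of all 15624 genes were (30.5% higher), and Retnlg was the 1 gene not called, at 0.43 ± 0.67 (SE).

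As a share of the same mouse's whole lung CPM, epithelial S100a8 ran from 1.39% to 19.3% over 24 mice with a median of 4.14%, and S100a9 from 3.02% to 14.5% with a median of 7.05%. Csf3r had a median of 1.28% and at most 10.2%, and Cxcr2 a median of 3.36% and at most 13.5%. Hk3 kept more, with a median of 19.4% and up to 60.6%. Il1b and Fpr1 had medians of 4.52% and 3.38% but reached 52.2% and 47.3% in single mice. Acod1 had a median of 3.87% and at most 31.8% in the 22 mice with whole lung counts, and Ngp a median of 3.76%, with 499% in saline mouse 221, where both libraries held under 1 CPM. Retnlg had a median of 40.5% and ran from 5.38% to 286%. How much of the epithelial signal came from RNA of other cells carried through the pull-down was not tested. Several genes had no count in many epithelial libraries, 12 of 24 for Ngp, 11 for Acod1, 9 for Fpr1 and 6 for Csf3r. A floor of 3 counts is 0.0832 to 0.419 CPM in these libraries, which covers counting error alone, so low epithelial values have little precision.

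**Figure D4:**
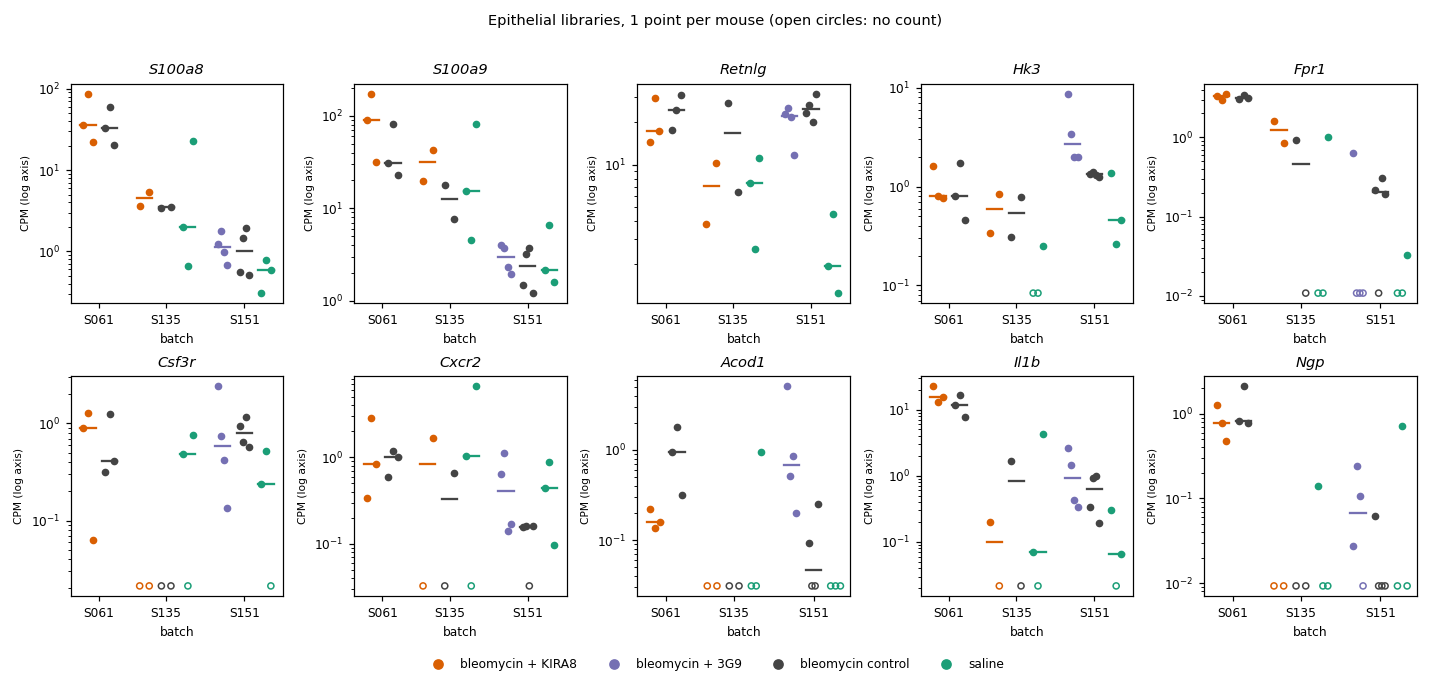
Level of each gene in epithelial libraries, in CPM on a log axis, by batch, with a point per mouse, a bar at the median of the arm and open circles for libraries with no count. In S151 Retnlg is at 11.8 CPM or more in every bleomycin mouse and at 4.51 CPM or less in every saline mouse.

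Retnlg was the 1 gene of the list that rose in epithelium after bleomycin. In S151, epithelial Retnlg was at 23.3, 26.6, 20.1 and 32.01 CPM in bleomycin control mice 204, 206, 208R and 225, against 1.91, 4.51 and 1.24 CPM in saline mice 207, 221 and 230. Every bleomycin control was several-fold above every saline mouse. In S135 it was at 27.4 and 6.47 CPM in bleomycin control mice 148 and 149, against 7.42, 2.53 and 11.2 CPM in saline mice 146, 152 and 153, and these overlapped. Over both batches the log2 fold change was 1.78 ± 0.48 (SE), which was called. It was 1 of 10 genes called higher, and none was called lower, where 4.55% of all 17291 genes tested were called higher and 4.17% lower. The median log2 fold change of the list was -0.53, against -0.00159 over all genes tested, and without saline mouse 153 it was 1.03, with 6 of the 10 positive. Left out in turn, bleomycin control mouse 148 and saline mice 207 and 221 each ended the call, at 1.63, 1.55 and 1.83.

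Within S151, Retnlg and Csf3r had every bleomycin control mouse above every saline mouse in epithelium, where 20.7% of all genes did, and none had them below (0.763%). Within S135 this held for Hk3 alone, where 22.5% of all genes did, and none was below (7.02%). Hk3 was at 0.307 and 0.786 CPM in bleomycin control mice 148 and 149 there. Saline mouse 153 had 0.251 CPM, and the other saline mice of S135 had no count. A floor of 3 counts is 0.231 CPM for mouse 148 and 0.188 CPM for mouse 153, so this separation has little precision.

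The calprotectin genes did not share this pattern. Epithelial S100a8 had 0.5603, 1.45, 1.94 and 0.5095 CPM in bleomycin control mice and 0.307, 0.783 and 0.586 CPM in saline mice of S151, which overlapped. In S135 it had 3.46 and 3.51 CPM in bleomycin control mice and 2.01, 0.661 and 22.4 CPM in saline mice, with mouse 153 highest. Its log2 fold change was -0.59 ± 0.67 (SE), and 0.85 without mouse 153, so 1 saline mouse set its sign. Epithelial Cxcr2 was at -2.68 ± 0.95 (SE), not called, and -1.72 without mouse 153. S100a9 was at -1.31 ± 0.59 and -0.49 without that mouse. Of the rest, none called, Hk3 was at 1.07 ± 0.61, Fpr1 at 1.48 ± 1.09, Csf3r at -0.89 ± 1.17, Acod1 at -0.48 ± 1.53, Il1b at -0.20 ± 1.07 and Ngp at -3.86 ± 1.25 (SE). Without mouse 153 Acod1 and Il1b were at 3.52 and 2.16, and without saline mouse 221 Ngp was at -0.70.

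Set against whole lung in the same mice, Retnlg changed with bleomycin more in epithelium. Its epithelial level as a percentage of whole lung was 286, 269, 195 and 249.7 in bleomycin control mice of S151, against 34.1, 57.97 and 38.1 in saline mice. In S135 it was 146 and 82.2 in bleomycin control mice, against 35.7, 42.95 and 15.7 in saline mice. The percentages did not overlap in either batch. In S135 those of S100a8, S100a9 and Hk3 were also higher in both bleomycin control mice than in every saline mouse. In S151 this held for Csf3r too. The Hk3 percentages of S135 rest on few epithelial counts, 4 over the 3 saline mice. The share of all genes with such a separation was not computed. The difference between compartments in the bleomycin response, epithelium minus whole lung on the log2 scale, was 1.85 ± 0.35 (SE) for Retnlg, fitted with the mouse as a block. It was called, the only 1 of the 10 called higher, where 0.257% of all 19808 genes tested were, and none of the 10 was called lower (0.0858% of all genes). S100a9 had 0.07 ± 0.24 and S100a8 1.03 ± 0.36 (SE) in the same fit, neither called. Without saline mouse 207 the Retnlg difference was 1.77 and was not called. It was not called by limma-voom or without the replicate block either.

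With KIRA8 the epithelial percentage of Retnlg was 14.8 and 22.01 in S135, against 146 and 82.2 in bleomycin control mice, which did not overlap. In S061 it was 6.51, 5.38 and 13.6 with KIRA8, against 24.2, 8.03 and 32.7 in bleomycin control mice, which overlapped. The separation in S135 was not particular to Retnlg. The percentages of S100a8 and S100a9 were also lower there in both KIRA8 mice than in both bleomycin control mice, and that of Fpr1 was higher. In S061 the percentage of S100a9 was lower in every KIRA8 mouse than in every bleomycin control mouse. How many of all genes separated in this way was not computed. Epithelial Retnlg of S135 was 3.84 and 10.3 CPM with KIRA8, against 27.4 and 6.47 CPM in bleomycin control mice, which overlapped, while whole lung Retnlg was higher in both KIRA8 mice. The difference between compartments in the KIRA8 response was -1.65 ± 0.36 (SE), not called, where 0.0505% of all genes were called in either direction. In that fit 0 of 10 genes were called by edgeR or limma-voom, 1 by DESeq2 and 2 had an unadjusted p under 0.05, as did 11.7% of all genes. Without bleomycin control mouse 31 the difference was -2.04 and without KIRA8 mouse 41 it was -1.97, and both of these fits called it.

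With 3G9 the Retnlg percentage stayed high, at 212, 184, 205 and 182 in 3G9 mice, against 286, 269, 195 and 249.7 in bleomycin control mice. Epithelial Retnlg was 22.7, 25.1, 21.9 and 11.8 CPM in 3G9 mice 218, 219, 226R and 228, against 23.3, 26.6, 20.1 and 32.01 CPM in bleomycin control mice, and the arms overlapped. The difference between compartments in the 3G9 response was -0.16 ± 0.39 (SE), and 0 of 10 genes were called by edgeR, DESeq2 or limma-voom, where 0% of all genes were called by edgeR. An unadjusted p under 0.05 was found for 0 of the 10 and 2.26% of all genes.

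**Figure D5:**
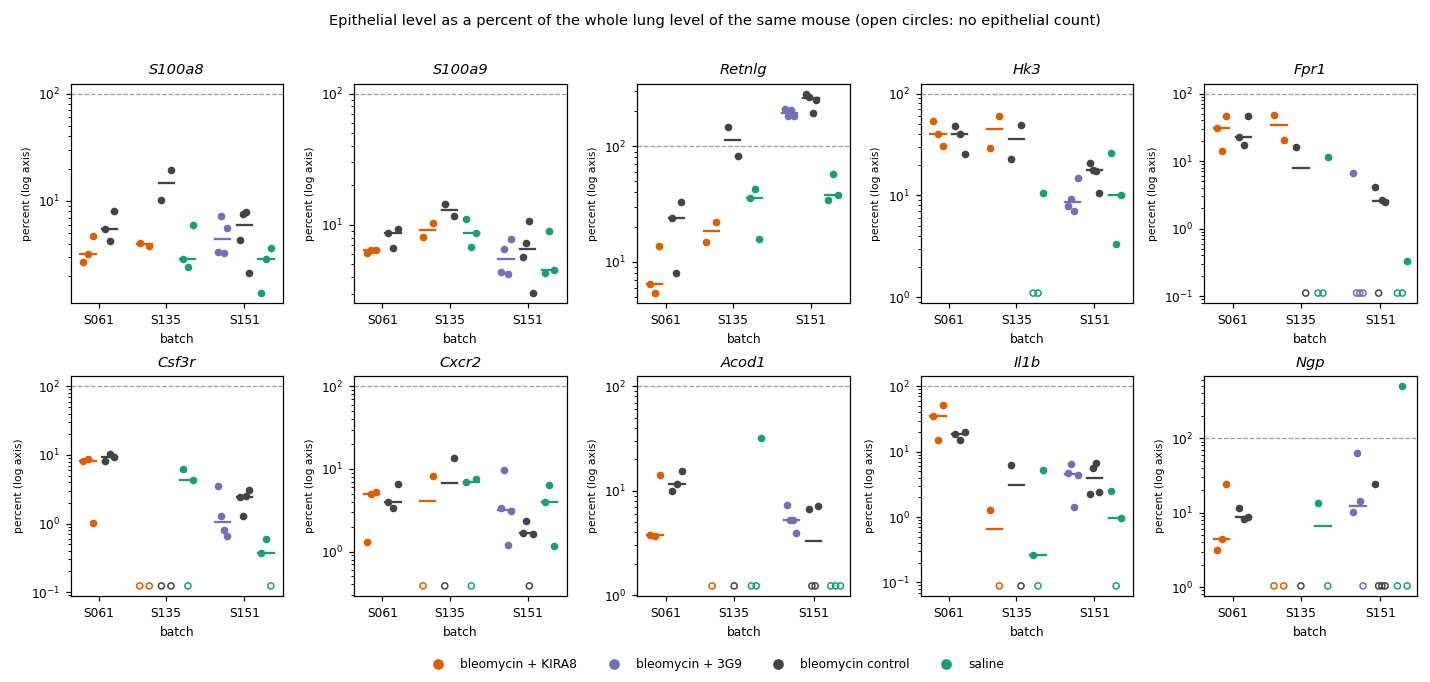
Epithelial CPM as a percentage of whole lung CPM of the same mouse, on a log axis, by gene and batch, with a point per mouse. S100a8 stays between 1.39% and 19.3%, while Retnlg reaches 286% in a bleomycin control mouse of S151.

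Treatment differences within epithelium were few. KIRA8 against bleomycin control gave 0 of 10 genes called by edgeR, DESeq2 or limma-voom where 0.26% of all genes were called by edgeR, and 0 with an unadjusted p under 0.05, where 11.5% of all genes had one. The S100a9 log2 fold change was 1.28 ± 0.62 (SE) and that of Retnlg -0.69 ± 0.51 (SE). The others were 0.28 ± 0.67 for S100a8, 0.48 ± 0.63 for Hk3, 0.52 ± 1.003 for Fpr1, -0.36 ± 1.19 for Csf3r, 0.82 ± 0.98 for Cxcr2, -2.53 ± 1.34 for Acod1, -0.16 ± 1.05 for Il1b and -0.23 ± 1.01 for Ngp (SE). Epithelial S100a9 had 19.6 and 43.0 CPM with KIRA8, against 17.7 and 7.74 CPM in bleomycin control mice of S135, and 89.6, 174 and 31.7 CPM, against 30.5, 81.05 and 23.1 CPM, in S061. In S135 S100a8 and S100a9 were higher in both KIRA8 mice than in both bleomycin control mice, where 11.5% of all genes were, and none of the 10 was lower in both, where 23% were. In S061 the arms overlapped for both genes, none of the 10 separated upward (7.41% of all genes), and Acod1 alone separated downward (23.3%). Epithelial Acod1 was at 0.224, 0.135 and 0.159 CPM with KIRA8 there, against 0.948, 1.79 and 0.319 CPM. The 3 KIRA8 libraries held 15 counts of Acod1 in all, so this separation has little precision.

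3G9 against bleomycin control also gave 0 of 10 genes called by edgeR, DESeq2 or limma-voom in epithelium, where 0% of all genes were called by edgeR. An unadjusted p under 0.05 was found for 2 of the 10 and for 3.27% of all genes. All 10 log2 fold changes were positive with a median of 1.03 (0.64 without mouse 218), against 0.01 over all genes tested. Within S151 alone 7 of 10 mean differences were positive, with Retnlg at -0.28, Fpr1 at -0.62 and Csf3r at -0.29. Their fitted values were 0.10, 0.14 and 0.73. All 3G9 mice were in S151, while the fit also drew on mice of the other batches through its arm and batch terms. What made the values differ was not tested. Without mouse 218 the fitted values of Fpr1 and Csf3r were -4.62 and -0.196. Acod1 had 5.08, 0.511, 0.85 and 0.202 CPM in 3G9 mice 218, 219, 226R and 228, against 0.0934, 0, 0 and 0.255 CPM in bleomycin control mice, and Hk3 8.76, 3.44, 1.98 and 2.02 CPM, against 1.34, 1.41, 1.32 and 1.24 CPM. Hk3 did not overlap between these arms, which was so for 0.37% of all genes, and none of the 10 separated downward (1.73%). Mouse 218 was highest for both genes, as in whole lung. Their log2 fold changes were 4.91 ± 1.22 (SE) for Acod1 and 1.33 ± 0.69 (SE) for Hk3, and without mouse 218 they were 3.42 and 0.73. The difference between compartments in the 3G9 response was 0.95 ± 0.77 (SE) for Acod1 and -0.94 ± 0.51 (SE) for Hk3, neither called.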

How the data were processed

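The deposited values are unnormalized counts of reads (whole numbers) for each Ensembl gene in 48 libraries of 24 mice. Per the labels' protocols, RNA came from anti-HA immunoprecipitation and was sequenced with QuantSeq Forward 3′ libraries, and the submitters' processing notes name STAR 2.5.2b and build GRCm38. The sources used here name no counting program or annotation. CPM were counts scaled to the library total. 3′ libraries give about 1 read position per transcript, so CPM is not divided by length.

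Counts were tested in R 4.3.3 with the quasi-likelihood test of edgeR 4.0.16 (TMM, filterByExpr, robust, Benjamini-Hochberg over all genes tested, called at an adjusted p under 0.05). Fits between arms used the 24 libraries of a compartment with batch as a term. Fits between compartments kept the mouse as a block, since labels give both libraries of a mouse the same number. SE is the log2 fold change divided by the root of F. The fits were also run on simulated counts with 200 changed genes, none of them low, the same spread for all genes and no mouse effect. That run does not cover genes near the floor or mice that differ several-fold. Alternatives were DESeq2 1.42.0, limma-voom 3.58.1, other filters and scalings, single batches and leaving out each mouse of the arms compared.

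The table's IDs are not paired with symbols, and a RefSeq gene table (GRCm38.p6) matched 0 of the 42548 IDs. Symbols of the 10 genes came with the list, positions and promoters from RefSeq, matched by symbol for all 10. The 8 lists of other pathway and cell type genes could not be applied. The rule for named genes took all 10 genes, beside the 2 most like them by correlation. The plots show all 10, and the text gives values for those each comparison turns on. The genes and lists were chosen with earlier results of these data known.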

Additional observations from a re-analysis of the deposited data

Results flagged for a closer look

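In groups of 4 to 10 mice, 24 of 80 groups (a gene in an arm and compartment) had a mouse far from the others by Dixon's criterion. Chance gives about 1 in 20 for independent values with a normal spread. These are CPM of genes that vary together in the same mice, and most arms span batches of different level. The count of flagged groups therefore cannot be read against that rate. Saline mouse 153 and bleomycin control mouse 31 account for most of the flagged groups.

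Saline mouse 153 stood above the other saline mice in whole lung with 379.6 CPM of S100a8, 945 CPM of S100a9, 71.1 CPM of Retnlg, 88.03 CPM of Cxcr2, 2.96 CPM of Acod1 and 82.5 CPM of Il1b. In epithelium it had 22.4 CPM of S100a8, 82.1 CPM of S100a9, 1.003 CPM of Fpr1, 6.65 CPM of Cxcr2, 0.9404 CPM of Acod1 and 4.26 CPM of Il1b.

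Bleomycin control mouse 31 stood above its arm in whole lung with 1398 CPM of S100a8, 1209 CPM of S100a9, 306 CPM of Retnlg, 35.3 CPM of Cxcr2 and 25.8 CPM of Ngp. In epithelium it had 81.05 CPM of S100a9 and 2.11 CPM of Ngp.

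KIRA8 mouse 32 had 56.8 CPM of Cxcr2 in whole lung. The epithelial library of 3G9 mouse 218 had 5.08 CPM of Acod1 and 0.638 CPM of Fpr1. Epithelial libraries of saline mice 207 and 221 had 1.37 CPM of Hk3 and 0.709 CPM of Ngp.

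The bleomycin response of Retnlg differed between epithelium and whole lung by 1.85 ± 0.35 (SE) on the log2 scale, tested as the interaction of compartment and arm.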

How the results depend on the processing

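Of 230 counts of called genes under alternatives, 203 stayed within 1.5 times of the reported count, and of 287 alternatives to called values none turned the direction. In epithelium, bleomycin control against saline gave 2 called genes with DESeq2 (Retnlg higher, Cxcr2 lower) and 2 with limma-voom (Retnlg and Fpr1 higher), 0 within S135, and 0 to 2 with single mice left out. In whole lung, that comparison gave 1 with DESeq2. For 3G9 in whole lung, DESeq2 gave 2 (Hk3 and Acod1), while 0 were called without the batch term, without batch S061, within S151 and with only the 2 arms compared, and leaving out single mice gave 0 to 2. The compartment difference in the bleomycin response gave 0 with limma-voom and 0 without the replicate block that pairs the libraries of a mouse, and 0 to 1 with single mice left out. For the KIRA8 difference, DESeq2 and the fit without batch S061 each gave 1, and single mice left out gave 0 to 1. Except where fewer mice were fitted, the cause was not tested. Few counts per epithelial library limit Acod1, Ngp, Fpr1, Csf3r and, in S135, Hk3 there.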
